A study of Mus musculus with 9 samples.

Results

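The genes described here encode the nuclear subunits of the mitochondrial respiratory chain, complexes I to IV, and of ATP synthase, complex V. They were chosen by symbol: every gene on the array whose name begins with Ndufa, Ndufb, Ndufc, Ndufs, Ndufv, Uqcr, Cox4, Cox5, Cox6, Cox7, Cox8 or Atp5, with Sdha, Sdhb, Sdhc, Sdhd and Cyc1 added. Of the 88 symbols found, 8 assembly factors of the Ndufaf group and 1 pseudogene were left out, which gave 79 subunit genes among the 19057 symbols of the array. Complex I had 34 of them, complex II 4, complex III 8, complex IV 17 and complex V 16. Ndufa4 carries a complex I name but is a subunit of complex IV, and is counted there. Some other subunits, among them Ndufb1, Uqcrb, Cox7c, Cox8a and Atp5g1, and the mitochondrially encoded subunits are not analysed here.

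RNA came from 3 tissues of the knee of CD-1 mouse embryos on embryonic day 16, taken from the hindlimb: the meniscus, the fibrous pad between the joint surfaces, the cruciate ligament, which ties femur to tibia, and the articular cartilage, which covers the bone ends. Each tissue was measured on 3 Illumina bead arrays, and the labels name no transgene and no treatment. Whether the 3 samples of a tissue are separate animals is not stated, and the p-values then cover only how far these samples differ, which may be technical. Levels are given, array by array in the order of the replicate numbers, as background-corrected, quantile-normalized log2 signal of 1 probe a gene, and a level says nothing about how one gene compares with another, because probes differ in brightness. In RNA from whole tissue, fewer cells of a type and less RNA per cell cannot be told apart.

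The respiratory chain passes electrons from NADH, at complex I, and from succinate, at complex II, through complex III to oxygen at complex IV, and pumps protons across the inner mitochondrial membrane. Complex V lets the protons back and makes ATP. Chondrocytes of avascular cartilage are known for drawing much of their ATP from glycolysis, and the chain is also needed there for redox balance and matrix synthesis. Most subunits are expressed in every tissue, while a few subunits of complex IV have isoforms with a preferred tissue or oxygen level.

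The median scanner signal of an array was 93.4 to 101.2 in meniscus, 147.4 to 209.7 in ligament and 99.5 to 103.8 in cartilage. A probe counted as detected at a detection p below 0.01, which held for 28.88% to 31.89% of probes in meniscus, 18.01% to 20.92% in ligament and 29.42% to 35.56% in cartilage. The ligament arrays form a deposited set of their own, so array set and tissue cannot be told apart in any difference between ligament and another tissue. The labelled tissues showed their defining genes in part. Of 12 cartilage markers, 10 were lower in ligament than in cartilage by limma's moderated test, beside 11.7% of all features, and 6 lower in meniscus than in cartilage, beside 0.305%. Matn3, Snorc and Cytl1, counted in both, were detected on all 3 arrays of cartilage alone, and only this let them into the test. Comp, also counted in both, stood at 8.56 ± 1.01 in meniscus, 8.13 ± 1.16 in ligament and 12.15 ± 0.45 in cartilage (log2, mean ± SD, n = 3 arrays each). Of 9 ligament and tendon markers, 7 could be tested. Of these 5 were higher in ligament than in cartilage, beside 4.37% of all features, among them Mkx. However, Tnc differed by -0.55 in that comparison (adjusted p = 0.106) and was higher in meniscus than in ligament by 0.95 (adjusted p = 0.0210). Tnmd was detected on 0 arrays and Scx on 1. Of 3 tested meniscus and joint markers, 0 passed between meniscus and cartilage, beside 0.349% of all features higher and 0.305% lower. Gdf5, 1 of the 3, differed there by 0.38 (adjusted p = 0.832).

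Of the 79 subunit genes, 71 were detected on all 3 arrays of at least 1 tissue and entered the test across all 9166 features. They were 32 genes of complex I, 4 of complex II, 7 of complex III, 12 of complex IV and 16 of complex V. On all 3 meniscus arrays 69 of the 71 were detected, or 97.18% beside 89.48% of all features, on all 3 ligament arrays 52, or 73.24% beside 49.36%, and on all 3 cartilage arrays 68, or 95.77% beside 90.66%. Ndufa11, Ndufc1 and Cox4i2 entered the test through the meniscus arrays alone, and Uqcrfs1 and Cox6b2 through the cartilage arrays alone. Ndufa11, Ndufs3, Ndufs7, Uqcrfs1, Cox4i2 and Cox6b2 were detected on 0 ligament arrays. The 8 untested genes included Cox6a2, Cox7a1 and Cox8b, isoforms of heart and skeletal muscle, and Cox7b2 and Cox8c, known from testis. All 5 were detected on 0 of 9 arrays, while their widely expressed partners Cox6a1, Cox7a2 and Cox7b were tested. The other untested genes were Ndufb11, detected on 0 arrays, Ndufb7, detected on 1 meniscus array, and Uqcrq, detected on 5 arrays over the 3 tissues.

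The promoters of the 4 subunit genes that passed the test in both comparisons with ligament are shown first, because they are the genes the results turn on. Atp5k encodes the small membrane subunit e of ATP synthase and lay higher in ligament by the probe used. Ndufs7, an iron-sulfur core subunit of complex I, Uqcr11, a small subunit of complex III, and Ndufa3, an accessory subunit of complex I, lay lower in ligament. The windows run from 250 bases before to 50 bases after the transcription start, 5′ to 3′ on the gene's strand, from RefSeq on build GRCm38.p6. Capitals mark matches on either strand to the letters of NRF1 (GCGCA, any base, then GCGC), to CCGGAAG of the ETS factor GABPA and to AAGATGG of YY1, 3 factors known for binding many promoters of respiratory chain genes.
Atp5k, chr5:108434350-108434649, minus strand: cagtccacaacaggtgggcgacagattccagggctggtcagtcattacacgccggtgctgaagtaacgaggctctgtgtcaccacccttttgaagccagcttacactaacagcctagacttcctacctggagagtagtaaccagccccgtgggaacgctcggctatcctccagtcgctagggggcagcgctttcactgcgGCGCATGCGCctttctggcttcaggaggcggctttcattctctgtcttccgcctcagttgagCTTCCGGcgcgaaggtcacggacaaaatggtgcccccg
Ndufs7, chr10:80249199-80249498, plus strand: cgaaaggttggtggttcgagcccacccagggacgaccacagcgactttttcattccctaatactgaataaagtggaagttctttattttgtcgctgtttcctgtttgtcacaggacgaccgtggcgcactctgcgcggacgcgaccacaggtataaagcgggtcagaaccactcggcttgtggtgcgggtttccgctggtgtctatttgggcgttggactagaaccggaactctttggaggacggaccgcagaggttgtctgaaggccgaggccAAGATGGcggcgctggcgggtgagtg
Uqcr11, chr10:80406772-80407071, minus strand: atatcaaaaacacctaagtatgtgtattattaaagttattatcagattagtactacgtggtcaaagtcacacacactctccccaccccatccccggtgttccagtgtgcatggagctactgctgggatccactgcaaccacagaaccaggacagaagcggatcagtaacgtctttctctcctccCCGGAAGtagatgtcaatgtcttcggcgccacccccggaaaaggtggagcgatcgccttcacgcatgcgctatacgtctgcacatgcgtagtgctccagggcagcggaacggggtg
Ndufa3, chr7:3617123-3617422, plus strand: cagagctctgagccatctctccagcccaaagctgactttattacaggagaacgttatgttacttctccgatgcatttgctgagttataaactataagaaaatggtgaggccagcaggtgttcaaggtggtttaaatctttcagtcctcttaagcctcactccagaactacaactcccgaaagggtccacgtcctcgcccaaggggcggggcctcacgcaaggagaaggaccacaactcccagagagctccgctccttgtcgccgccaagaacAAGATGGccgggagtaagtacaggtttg
The Atp5k window held an NRF1 match and an ETS match, the Uqcr11 window an ETS match, and the windows of Ndufs7 and Ndufa3 a YY1 match each.

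Windows were found for 65 of the 79 subunit genes. NRF1 letters stood in 15 of the 65 windows, 23.1%, against 4.78% of all 27025 promoter windows of the same length. The ETS letters also stood in 15, or 23.1%, against 9.12%, and the YY1 letters in 9, or 13.8%, against 6.48%. The ETS and YY1 letters share the bases AAG and can overlap. Commoner promoter letters differed less, with the CCAAT box in 43.1% of subunit windows against 37.9%, the GC box GGGCGG in 44.6% against 35.9% and the TATA box TATAAA in 12.3% against 14.2%. The median GC content was 58.3% in the subunit windows and 52.7% in all windows, and the median number of CpG was 19 and 7. These matches describe the sequence and do not show that a factor was bound.

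The first comparison set the meniscus against the articular cartilage, the pair measured in 1 array set. By limma's moderated test with Benjamini-Hochberg adjustment over all features, 0 of the 71 subunit genes passed an adjusted p under 0.05, beside 0.349% of all features that were higher and 0.305% that were lower. At an unadjusted p under 0.05, 4 subunit genes were higher in meniscus, beside 5.72% of all features, and 1 lower, beside 5.60%. With the authors' processed values 1 of the 71 passed, Ndufa4, higher in meniscus, beside 204 of 9128 features higher and 193 lower. Of the 71 differences, 54 lay above 0 and 17 below, with a median of 0.17 on the log2 scale, against 0.01 for all features. The meniscus and cartilage arrays did not overlap for 16 subunit genes that were higher in meniscus, beside 13.6% of all features, and for 2 that were lower, beside 12.6%. Complex by complex, the median difference was 0.18 for complex I, 0.21 for complex II, 0.07 for complex III, 0.24 for complex IV and 0.11 for complex V.

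The second comparison set the meniscus against the ligament. Here 7 subunit genes were higher in meniscus, beside 9.15% of all features, and 1 was lower, beside 3.56%. The higher ones were Ndufs7, Ndufa3 and Ndufa11 of complex I, Uqcr11 of complex III, Cox5a of complex IV, and Atp5e and Atp5l of complex V, and the lower one was Atp5k. Ndufa11 had entered the test only through the tissue in which it was high, and without it 6 were higher. The median difference over the 71 genes was 0.37, against 0.24 for the median feature, so that the median subunit gene lay 0.14 above it. Arrays did not overlap for 28 subunit genes higher in meniscus, beside 23.2% of all features, and for 5 lower, beside 9.31%.

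The third comparison set the ligament against the cartilage, and shares its ligament arrays with the second. Atp5k, Cox7b and Ndufa4 were higher in ligament, 3 of 71 beside 4.37% of all features. Ndufs7, Ndufa3, Ndufv3, Uqcr11 and Cox6b2 were lower, 5 of 71 beside 11.7%, and 4 without Cox6b2, which had entered the test only through cartilage, where it was high. The median difference was -0.20, against -0.22 for the median feature. Arrays did not overlap for 8 subunit genes higher in ligament, beside 10.1% of all features, and for 20 lower, beside 24.7%. Over the 3 tissues together, a moderated F test called 10 of the 71 subunit genes, or 14.1%, beside 15.4% of all features.

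**Figure D1:**
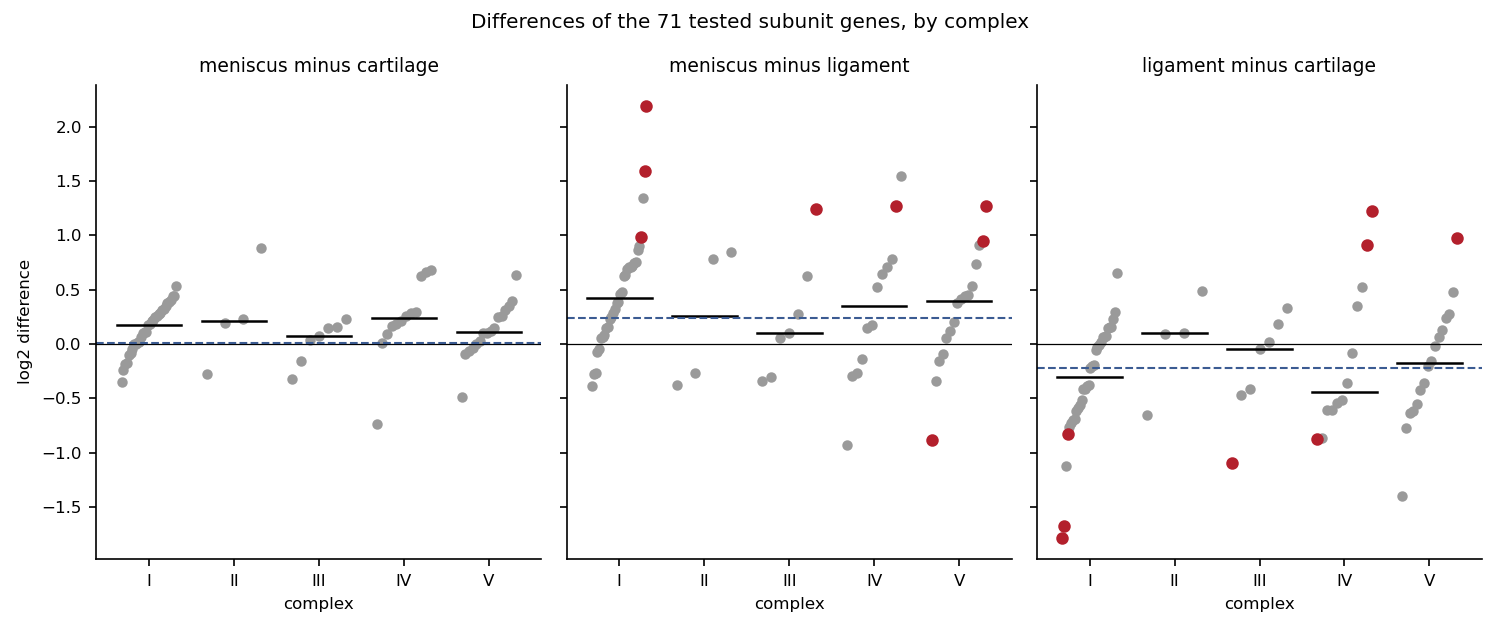
Log2 difference of each of the 71 tested subunit genes in the 3 comparisons, sorted within complexes I to V; red points passed the test at an adjusted p under 0.05 and grey points did not, the black bars are medians per complex, and the dashed line is the median of all 9166 features. In meniscus minus cartilage 0 points are red and 54 of 71 lie above 0, while the red points of the comparisons with ligament lie on both sides of the dashed line.

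Complex I, the entry point for NADH, had the gene with the smallest adjusted p of all subunit genes in both comparisons with ligament. Ndufs7 encodes a core subunit that holds the iron-sulfur cluster next to ubiquinone. Its levels were 5.91, 6.73 and 6.41 in meniscus, 4.89, 4.67 and 4.73 in ligament and 6.73, 6.57 and 6.01 in cartilage. The ligament arrays lay together below all 6 others, and the probe was not well above background on any of them, so the difference is a bound: at least 1.37-fold higher in meniscus than in ligament (adjusted p = 0.00928) and at least 1.46-fold lower in ligament than in cartilage (adjusted p = 0.00584). The measured means were 6.35 in meniscus, 4.76 in ligament and 6.44 in cartilage. Meniscus and cartilage differed by -0.09 ± 0.28 (log2, SE), with overlapping arrays.

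Ndufa3 is a small accessory subunit in the membrane arm of complex I. Its levels were 7.58, 8.04 and 7.79 in meniscus, 6.77, 5.70 and 4.37 in ligament and 7.51, 7.28 and 7.38 in cartilage. The 3 ligament arrays were spread widely but all lay below the other 6, and 1 of them was above background. The difference was 2.19 ± 0.50 between meniscus and ligament (log2, SE, adjusted p = 0.0233) and -1.78 ± 0.50 between ligament and cartilage (adjusted p = 0.0409). Over the alternatives these ran from 1.11 to 2.76 and from -2.36 to -0.84, and no fold is given because 2 of the 3 ligament arrays did not measure the probe above background. A second probe of Ndufa3 gave 1.78 and -1.38 in the same comparisons and passed in both, with adjusted p of 0.0149 and 0.0311 over the 12538 kept probes.

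Ndufa11, another membrane-arm subunit, had levels of 5.36, 5.62 and 5.54 in meniscus, 4.61, 4.46 and 4.50 in ligament and 4.85, 5.63 and 5.18 in cartilage. The measured means were 5.51 in meniscus and 4.52 in ligament (adjusted p = 0.0277), but none of its ligament arrays was above background and the bound on its fold was under 1, so no size is given. Ndufv3, an accessory subunit of the NADH-binding module, had levels of 6.77, 7.02 and 6.66 in meniscus, 6.68, 6.20 and 6.14 in ligament and 7.18, 7.13 and 7.19 in cartilage. Ligament was lower than cartilage by a log2 difference of -0.83 ± 0.22 (adjusted p = 0.0332), and its second probe gave -1.14 with an adjusted p of 0.120. Between meniscus and cartilage the Ndufv3 arrays did not overlap either, with meniscus lower, at a difference of -0.35 ± 0.22 and an adjusted p of 0.634.

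The other core subunits of complex I did not pass in any comparison. Ndufs1, the largest iron-sulfur subunit, had levels of 6.93, 6.52 and 6.39 in meniscus, 5.84, 6.30 and 5.62 in ligament and 6.11, 6.64 and 6.79 in cartilage. Ndufv1, which binds NADH and takes up its electrons, had levels of 8.96, 8.80 and 8.76 in meniscus, 8.53, 8.35 and 7.50 in ligament and 9.09, 8.68 and 8.90 in cartilage. The 3 meniscus arrays lay above the 3 ligament arrays for both genes, by 0.69 ± 0.28 (adjusted p = 0.129) for Ndufs1 and by 0.72 ± 0.28 (adjusted p = 0.127) for Ndufv1. Ndufs8, which carries iron-sulfur clusters, had levels of 7.41, 6.86 and 6.86 in meniscus, 4.99, 6.50 and 5.59 in ligament and 6.22, 6.90 and 7.33 in cartilage, and a difference of 1.35 ± 0.41 between meniscus and ligament (adjusted p = 0.0625). It was detected on 1 of the 3 ligament arrays, so this size rests in part on values at background. Ndufs3 and Ndufv2, the remaining tested core subunits, were added after their values were seen. Ndufs3 had levels of 5.76, 5.97 and 5.87 in meniscus, 5.39, 5.42 and 4.56 in ligament, where it was detected on 0 arrays, and 5.17, 5.80 and 6.08 in cartilage, with the meniscus arrays above the ligament arrays (adjusted p = 0.145). Ndufv2 overlapped in every comparison. Of the 6 tested core subunits, 6 had a positive fitted meniscus minus ligament difference, from 0.05 to 1.59, and 1 passed, while of the 26 accessory subunits 21 had a positive difference and 2 passed, beside 9.15% of all features that passed in that direction. The median feature was itself at 0.24 in this comparison. Of the 32 complex I genes 21 lay above the median feature, and Ndufv2, at 0.05, lay below it.

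Between meniscus and cartilage the largest differences in complex I were those of Ndufb6, Ndufa12 and Ndufs6, accessory subunits. Ndufb6 levels were 8.18, 8.85 and 8.38 in meniscus, 7.53, 7.81 and 7.82 in ligament and 7.87, 8.13 and 7.82 in cartilage. For Ndufs6, which is needed for full assembly of the complex, they were 9.78, 9.71 and 9.64 in meniscus, 9.28, 9.38 and 9.34 in ligament and 9.23, 9.34 and 9.23 in cartilage. The meniscus arrays lay above the cartilage arrays for both genes, by 0.53 ± 0.23 for Ndufb6 (adjusted p = 0.435) and 0.44 ± 0.18 for Ndufs6 (adjusted p = 0.394). For Ndufb6, a dimmer second probe gave -0.02 between meniscus and cartilage, so the size for this gene rests on the choice of probe. Ndufa12 differed by 0.44 ± 0.22 (adjusted p = 0.530). The other 22 complex I genes, Ndufs3 and Ndufv2 among them, ranged in meniscus minus cartilage from -0.24 for Ndufa5 to 0.39 for Ndufb9, with 16 above 0. In meniscus minus ligament they ranged from -0.39 for Ndufa5 to 0.90 for Ndufa13, and in ligament minus cartilage from -0.72 for Ndufa13 to 0.65 for Ndufb9. The smallest adjusted p among them was 0.0610, for Ndufa9 between meniscus and ligament.

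Complex II, succinate dehydrogenase, also serves the TCA cycle and is encoded by 4 nuclear genes. Of these, 0 passed in any comparison, although at an unadjusted p under 0.05 1 was higher in meniscus than in ligament, beside 22.1% of all features, and 1 higher in ligament than in cartilage, beside 9.12%. Sdha, the flavoprotein that oxidises succinate, had levels of 6.51, 6.27 and 6.58 in meniscus, 5.91, 6.16 and 4.75 in ligament and 6.34, 5.87 and 6.59 in cartilage. The meniscus arrays lay above the ligament arrays by 0.85 ± 0.37 (adjusted p = 0.158). Sdhb, its iron-sulfur partner, had levels of 6.52, 6.38 and 6.19 in meniscus, 4.59, 7.22 and 4.95 in ligament and 5.13, 5.48 and 5.83 in cartilage, and its ligament arrays ran from below to above every array of the other tissues. Sdhb was detected on 1 of the 3 ligament arrays. Its meniscus arrays lay above its cartilage arrays by 0.89 ± 0.58 (adjusted p = 0.658), the largest meniscus minus cartilage difference among the 71 genes.

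Sdhc and Sdhd anchor complex II in the membrane. Sdhc levels were 9.73, 9.98 and 9.67 in meniscus, 10.15, 9.92 and 10.11 in ligament and 9.58, 9.47 and 9.64 in cartilage, and ligament exceeded cartilage by 0.49 ± 0.19 (adjusted p = 0.113). Sdhd levels were 9.31, 9.32 and 9.24 in meniscus, 10.06, 9.51 and 9.44 in ligament and 9.69, 9.75 and 9.27 in cartilage, with a meniscus minus ligament difference of -0.37 ± 0.24 (adjusted p = 0.329). A dimmer second probe of Sdhc gave the opposite sign for ligament minus cartilage, -1.25 (adjusted p = 0.0211 over the kept probes), and for meniscus minus ligament, 1.15 (adjusted p = 0.0325) beside -0.26 for the probe used. The probes of Sdhc therefore disagree, and no direction is given for this gene.

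Complex III, which passes electrons to cytochrome c, had 1 gene that passed. Uqcr11 levels were 8.92, 8.59 and 8.69 in meniscus, 7.26, 7.11 and 8.10 in ligament and 8.79, 8.41 and 8.57 in cartilage. All 3 ligament arrays lay below the other 6. The difference was 1.24 ± 0.28 between meniscus and ligament (adjusted p = 0.0233), or 2.00-fold relative to the median feature, and -1.10 ± 0.28 between ligament and cartilage (adjusted p = 0.0311). The catalytic and core subunits of the same complex did not follow it. Cyc1, which carries the haem of cytochrome c1, had levels of 5.86, 6.21 and 5.90 in meniscus, 6.69, 6.34 and 5.96 in ligament and 6.90, 5.86 and 5.68 in cartilage. Uqcrfs1, the Rieske iron-sulfur protein, had levels of 5.55, 5.22 and 4.89 in meniscus, 5.35, 5.50 and 4.52 in ligament and 5.49, 5.73 and 5.40 in cartilage and was detected on 2 meniscus, 0 ligament and 3 cartilage arrays. Uqcrc1, a core protein, had levels of 7.02, 7.14 and 7.04 in meniscus, 7.61, 6.89 and 7.60 in ligament and 6.85, 6.96 and 7.28 in cartilage. For these 3 genes the arrays of the tissues overlapped in every comparison. Uqcrc2, Uqcrh and Uqcr10 also did not pass, and their differences lay between -0.46 and 0.63, both of these for Uqcrh, in comparisons with ligament.

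Complex IV, cytochrome c oxidase, had genes on both sides. Cox7b, a small accessory subunit, had levels of 9.80, 10.11 and 10.22 in meniscus, 11.53, 10.76 and 10.62 in ligament and 9.66, 9.76 and 9.83 in cartilage. The 3 ligament arrays lay above all other arrays, with a difference from cartilage of 1.22 ± 0.27 (adjusted p = 0.0183), or 2.72-fold relative to the median feature, and a meniscus minus ligament difference of -0.93 ± 0.27 (adjusted p = 0.0518). Ndufa4 levels were 10.17, 10.16 and 10.02 in meniscus, 10.76, 10.12 and 10.34 in ligament and 9.67, 9.33 and 9.49 in cartilage. The cartilage arrays lay below the other 6. Ligament exceeded cartilage by 0.91 ± 0.22 (adjusted p = 0.0267), and the meniscus minus cartilage difference was 0.62 ± 0.22 (adjusted p = 0.326). With the authors' processed values, used for meniscus and cartilage only, Ndufa4 was higher in meniscus by 0.56 and passed at an adjusted p of 0.0305. It was 1 of 204 features among 9128 that were higher with those values.

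Cox5a, an accessory subunit on the matrix side, had levels of 8.32, 8.35 and 7.89 in meniscus, 7.44, 6.85 and 6.46 in ligament and 7.13, 7.85 and 7.59 in cartilage. It was higher in meniscus than in ligament by 1.27 ± 0.31 (adjusted p = 0.0285), or 2.04-fold relative to the median feature. The cartilage arrays lay below all 3 meniscus arrays and overlapped the ligament arrays, with a meniscus minus cartilage difference of 0.66 ± 0.31 (adjusted p = 0.467). Its namesake Cox5b, the zinc-binding subunit, had levels of 9.59, 10.12 and 9.62 in meniscus, 10.33, 10.09 and 9.34 in ligament and 9.31, 9.81 and 9.58 in cartilage, with arrays that overlapped in every comparison.

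Isoforms of complex IV were compared between tissues, each by its own probe. Cox4i1, the common form of subunit 4, had levels of 8.89, 9.43 and 9.01 in meniscus, 8.59, 8.62 and 8.54 in ligament and 9.09, 9.26 and 8.95 in cartilage. Cox4i2, the form known from lung and from low oxygen, was detected on 3 meniscus, 0 ligament and 2 cartilage arrays, with levels of 5.61, 5.35 and 5.39 in meniscus, 5.02, 4.51 and 4.70 in ligament and 4.97, 5.75 and 5.14 in cartilage. Neither differed beyond the threshold in any comparison, with an adjusted p of 0.133 for Cox4i1 and 0.103 for Cox4i2 between meniscus and ligament. Cox6b1, the common form of subunit 6b, had levels of 10.16, 10.34 and 9.98 in meniscus, 9.82, 9.24 and 9.49 in ligament and 10.01, 9.80 and 9.82 in cartilage. Its meniscus arrays lay above its ligament arrays by 0.65 ± 0.22 (adjusted p = 0.0854), and its second probe gave 0.91 and passed, with an adjusted p of 0.0350 over the kept probes. Cox6b2, the form known from testis, was detected on 1 meniscus, 0 ligament and 3 cartilage arrays, with levels of 4.48, 5.10 and 4.58 in meniscus, 4.63, 4.53 and 4.56 in ligament and 5.76, 5.42 and 5.17 in cartilage. The Cox6b2 cartilage arrays lay above the other 6. The measured means were 4.57 in ligament and 5.45 in cartilage (adjusted p = 0.0394), with no size given because the bound was under 1, and its meniscus minus cartilage difference was -0.73 ± 0.24 (adjusted p = 0.275). Its levels were close to background in all 3 tissues.

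Cox7a2l, a paralogue of subunit 7a that takes part in joining complexes III and IV, had levels of 6.51, 7.23 and 7.43 in meniscus, 4.81, 5.20 and 6.52 in ligament and 5.77, 7.07 and 6.28 in cartilage. The meniscus minus ligament difference was 1.54 ± 0.49 (adjusted p = 0.0704), and that from cartilage 0.68 ± 0.49 (adjusted p = 0.702). Cox7a2l was detected on 1 of the 3 ligament arrays, so the size against ligament rests in part on values at background. Cox7a2 levels were 7.76, 7.02 and 8.10 in meniscus, 7.96, 7.63 and 4.92 in ligament and 7.64, 7.67 and 7.02 in cartilage, with ligament replicate 3 far below the other 8 arrays. Cox6a1 and Cox6c, the last of the common subunits tested, did not pass. The Cox6a1 arrays overlapped in every comparison, and Cox6c had levels of 11.26, 11.27 and 11.18 in meniscus, 11.77, 11.41 and 11.32 in ligament and 11.06, 10.86 and 11.00 in cartilage, lowest in cartilage.

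**Figure D2:**
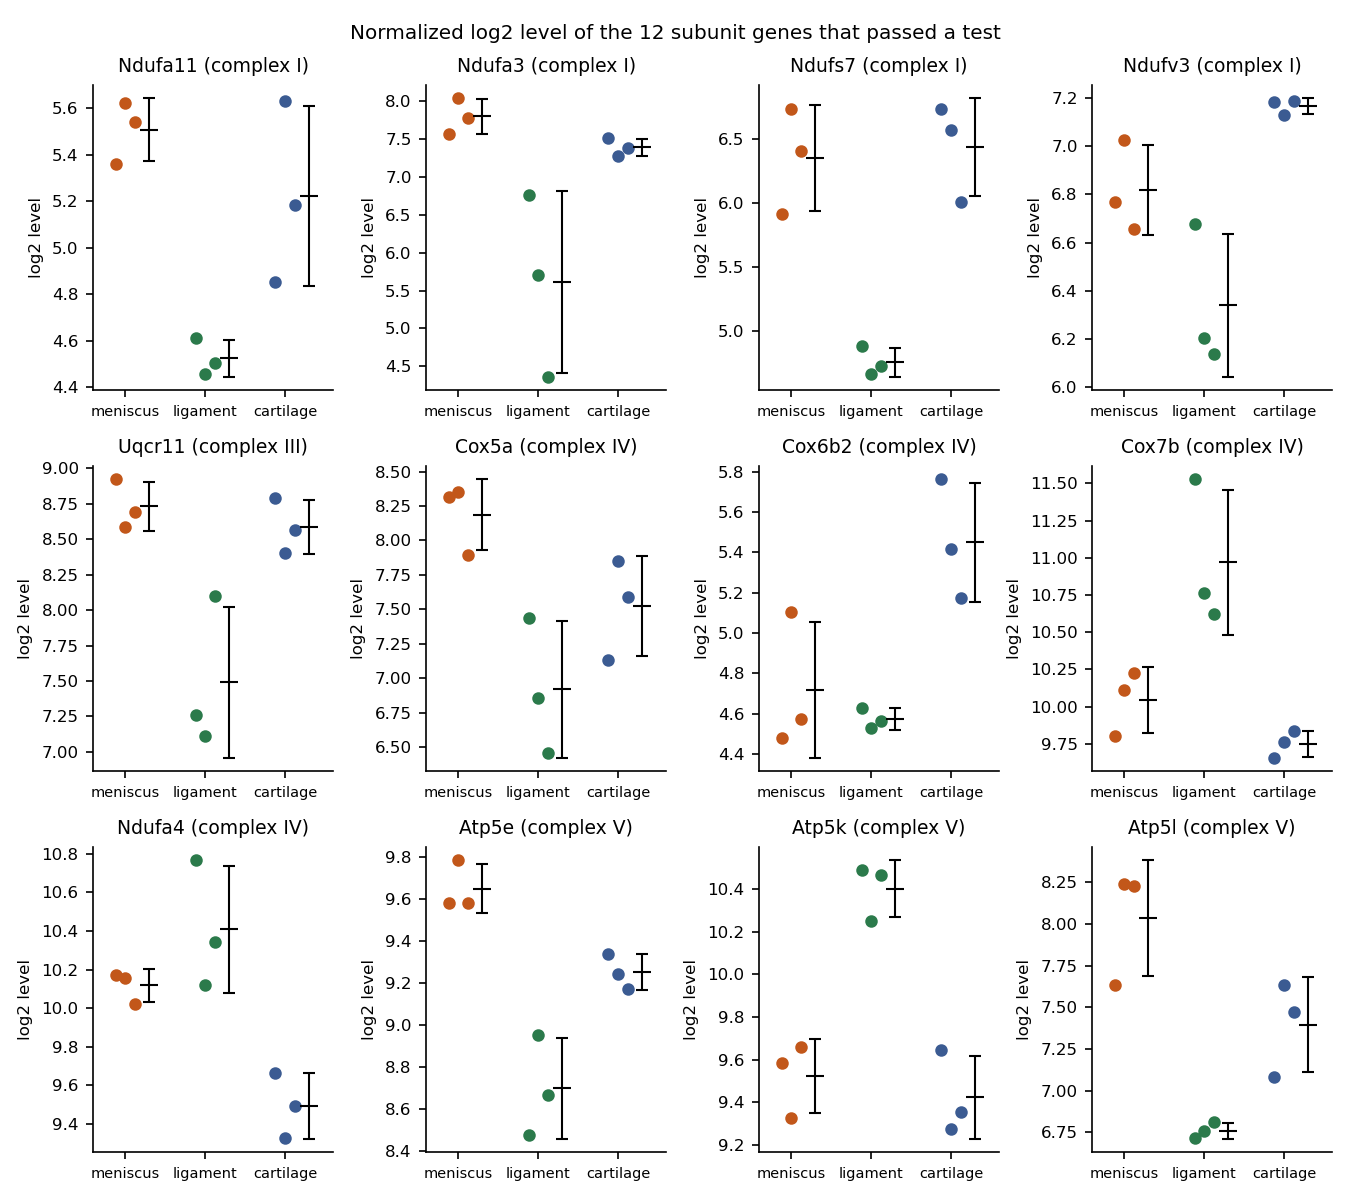
Normalized log2 level on each array of the 12 subunit genes that passed the test in at least 1 comparison; points are arrays, the bar is the mean and the whisker the SD of the 3 arrays of a tissue, and each panel has its own axis, which does not start at 0. The ligament points lie below the other 6 for Ndufs7, Ndufa3, Ndufa11, Uqcr11, Atp5e and Atp5l and above them for Atp5k and Cox7b.

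Complex V, ATP synthase, had 3 genes that passed, of which 2 encode small subunits of the membrane part and 1 a small subunit of the soluble F1 part. Atp5l, subunit g, had levels of 7.63, 8.24 and 8.23 in meniscus, 6.71, 6.76 and 6.81 in ligament and 7.08, 7.63 and 7.47 in cartilage. Meniscus was higher than ligament by 1.27 ± 0.24 (adjusted p = 0.0125), or 2.05-fold relative to the median feature, and its meniscus minus cartilage difference was 0.64 ± 0.24 (adjusted p = 0.357). A dimmer second probe of Atp5l gave 0.74 between meniscus and ligament and did not pass (adjusted p = 0.0672 over the kept probes). Between meniscus and cartilage that probe gave 0.04. Atp5e, the epsilon subunit of the central stalk, had levels of 9.58, 9.78 and 9.58 in meniscus, 8.48, 8.95 and 8.66 in ligament and 9.34, 9.24 and 9.17 in cartilage. Its 3 tissues did not overlap, with meniscus highest, cartilage next and ligament lowest. Meniscus exceeded ligament by 0.95 ± 0.20 (adjusted p = 0.0185), while ligament minus cartilage was -0.55 ± 0.20 (adjusted p = 0.0936) and meniscus minus cartilage 0.40 ± 0.20 (adjusted p = 0.532).

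Atp5k levels by the brighter of its probes were 9.58, 9.33 and 9.66 in meniscus, 10.49, 10.25 and 10.46 in ligament and 9.64, 9.27 and 9.36 in cartilage. The ligament arrays lay above the other 6, with a meniscus minus ligament difference of -0.88 ± 0.21 (adjusted p = 0.0254) and a ligament minus cartilage difference of 0.98 ± 0.21 (adjusted p = 0.0153). The dimmer probe of the same gene ran the other way and also passed. It averaged 5.94 in meniscus, 4.48 in ligament and 5.78 in cartilage, with a meniscus minus ligament difference of 1.46 (adjusted p = 0.00423) and a ligament minus cartilage difference of -1.30 (adjusted p = 0.00455). With the mean of both probes the signs turned, to 0.29 (adjusted p = 0.317) and -0.16 (adjusted p = 0.572). The direction for Atp5k therefore rests on the choice of probe.

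The catalytic core of ATP synthase did not pass in any comparison. Atp5b, the catalytic beta subunit, had levels of 10.48, 10.42 and 10.34 in meniscus, 10.17, 10.49 and 10.42 in ligament and 10.36, 10.20 and 10.32 in cartilage. Atp5a1, the alpha subunit, had levels of 9.22, 9.50 and 9.43 in meniscus, 9.17, 8.20 and 8.56 in ligament and 9.31, 9.53 and 9.40 in cartilage. Atp5c1, the rotating gamma subunit, had levels of 10.27, 10.57 and 10.41 in meniscus, 10.36, 10.47 and 10.07 in ligament and 10.12, 10.32 and 10.06 in cartilage. Arrays overlapped in every comparison for Atp5b and Atp5c1, while the ligament arrays of Atp5a1 lay below the other 6, by -0.77 ± 0.26 against cartilage (adjusted p = 0.0759). Atp5g2 and Atp5g3 encode the same mature c subunit of the rotor ring. Atp5g2 had levels of 6.81, 5.64 and 6.29 in meniscus, 5.27, 5.97 and 4.77 in ligament and 7.68, 6.25 and 6.27 in cartilage, with a ligament minus cartilage difference of -1.39 ± 0.48 (adjusted p = 0.0775). It was detected on 1 of the 3 ligament arrays, so this size rests in part on values at background. The Atp5g3 difference between ligament and cartilage was -0.42 ± 0.19 (adjusted p = 0.171). Atp5h, a peripheral stalk subunit, had levels of 9.82, 10.19 and 9.80 in meniscus, 10.05, 10.37 and 9.86 in ligament and 9.72, 9.64 and 9.50 in cartilage, lowest in cartilage. The 7 complex V genes not named so far ranged from -0.09 to 0.35 in meniscus minus cartilage, from -0.34 to 0.53 in meniscus minus ligament and from -0.62 to 0.27 in ligament minus cartilage, with Atp5j nearest to the threshold at an adjusted p of 0.0557 in the last.

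Leaving out 1 array ended many of these calls, and other alternatives ended calls too. Each highest adjusted p given here is taken over all alternatives, not only those that left out an array. Ndufs7 passed in both comparisons under all 17 alternatives that tested it, while detection on all 9 arrays left it out. Its fitted meniscus minus ligament differences ran from 0.57 to 1.82, with an adjusted p of at most 0.0435. Its ligament minus cartilage differences ran from -1.84 to -0.61, with an adjusted p of at most 0.0338. Between meniscus and ligament, Ndufa3, Uqcr11, Atp5e and Atp5k were lost without any 1 of the 3 meniscus arrays, with adjusted p up to 0.0855 for Ndufa3, 0.0841 for Uqcr11 and 0.0733 for Atp5e. Atp5l was lost without meniscus replicate 2 or 3 (adjusted p up to 0.0566), Ndufa11 without any 1 meniscus array or cartilage replicate 3 (up to 0.0970), and Cox5a without any 1 meniscus array, cartilage replicate 3 or ligament replicate 2 or 3 (up to 0.0970). Between ligament and cartilage, Cox7b and Ndufa4 were lost without any 1 cartilage array (up to 0.0622 and 0.0950) and Atp5k without cartilage replicate 2 or 3. Ndufa3, Ndufv3, Uqcr11 and Cox6b2 were each lost without any 1 cartilage array and some arrays of both other tissues, with adjusted p up to 0.115, 0.0962, 0.0993 and 0.134. Apart from Atp5k, each of these genes kept its sign in every alternative.

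The ligament differences went along with probe brightness. The 24 dimmest subunit probes, with mean log2 levels from 4.91 to 7.30, had a median ligament minus cartilage difference of -0.58, the 23 in between -0.38, and the 24 brightest, from 9.15 upward, 0.07. All 3 genes higher in ligament than in cartilage were among the brightest, and 4 of the 5 lower ones were among the dimmest. One of the 3 is Atp5k, whose dimmer probe, at a mean level of 5.40, was lower in ligament. In meniscus minus ligament the same groups had medians of 0.70, 0.53 and 0.05, and in meniscus minus cartilage 0.16, 0.17 and 0.18. Among the 52 subunit genes detected on all 9 arrays, the median ligament minus cartilage difference was -0.03, beside -0.02 for the 4381 features so detected. Their medians were 0.26 beside 0.06 in meniscus minus ligament, and 0.15 beside 0.02 in meniscus minus cartilage. Of the 18 genes with several kept probes, 10 had the same sign for the brightest and the others between ligament and cartilage. The part that brightness plays in the differences was not tested.

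**Figure D3:**
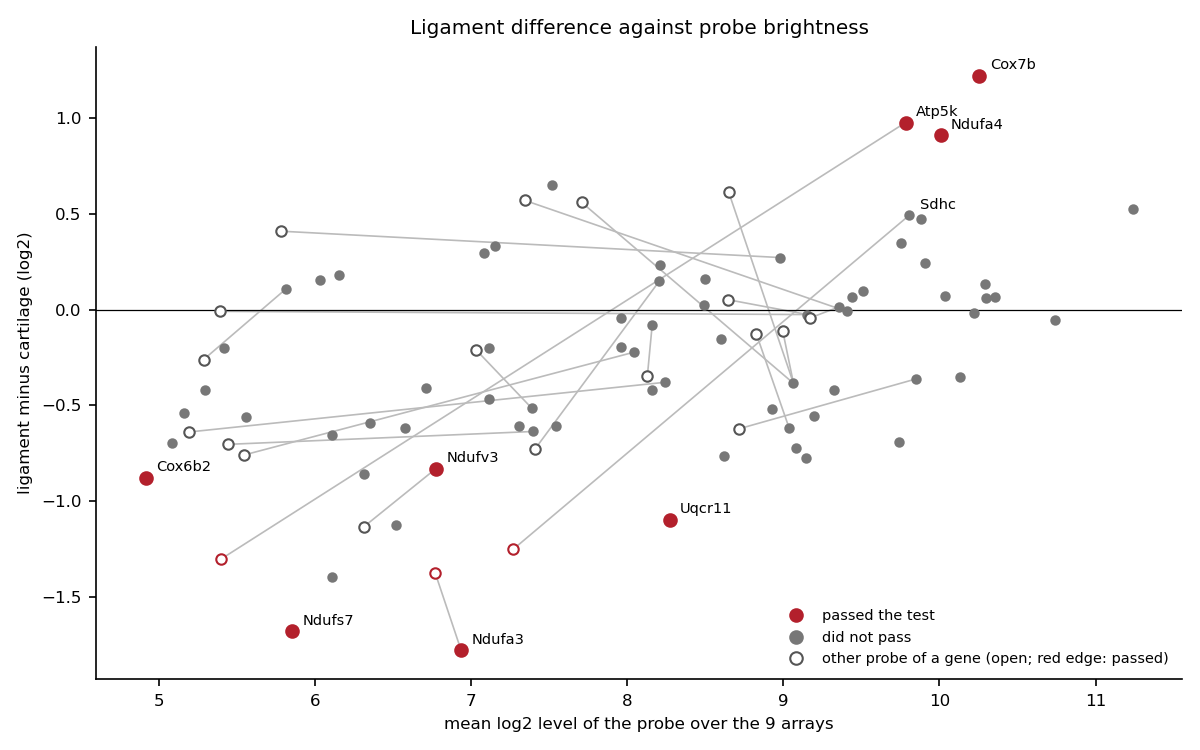
Ligament minus cartilage difference on the log2 scale against the mean log2 level of the probe over the 9 arrays; filled points are the probe used for each of the 71 genes, open points are other probes of the same gene joined to it by a line, and red marks an adjusted p under 0.05. The red points above 0 lie at the bright end and those below 0 further left, and the lines of Atp5k and Sdhc cross 0.

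The subunit genes varied more between the ligament arrays than between the arrays of the other tissues. The median SD over the 3 arrays of a tissue was 0.17 in meniscus, 0.34 in ligament and 0.17 in cartilage for subunit genes, and 0.25, 0.49 and 0.25 for all features. The median deviation of the 71 genes from their own means was 0.12, 0.25 and 0.13 on the meniscus arrays, -0.09, -0.08 and -0.35 on the ligament arrays and -0.00083, 0.08 and 0.02 on the cartilage arrays. Ligament replicate 3 was the lowest of the 9 arrays for 22 of the 71 genes. On that array the median deviation was -0.50 for complex I, -0.47 for complex II, -0.20 for complex III, -0.35 for complex IV and -0.23 for complex V, while over all features it was -0.18, near the -0.16 and -0.13 of the other ligament arrays. Without ligament replicate 3, the median meniscus minus ligament difference of the subunit genes was 0.25, and that of ligament minus cartilage -0.09.

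**Figure D4:**
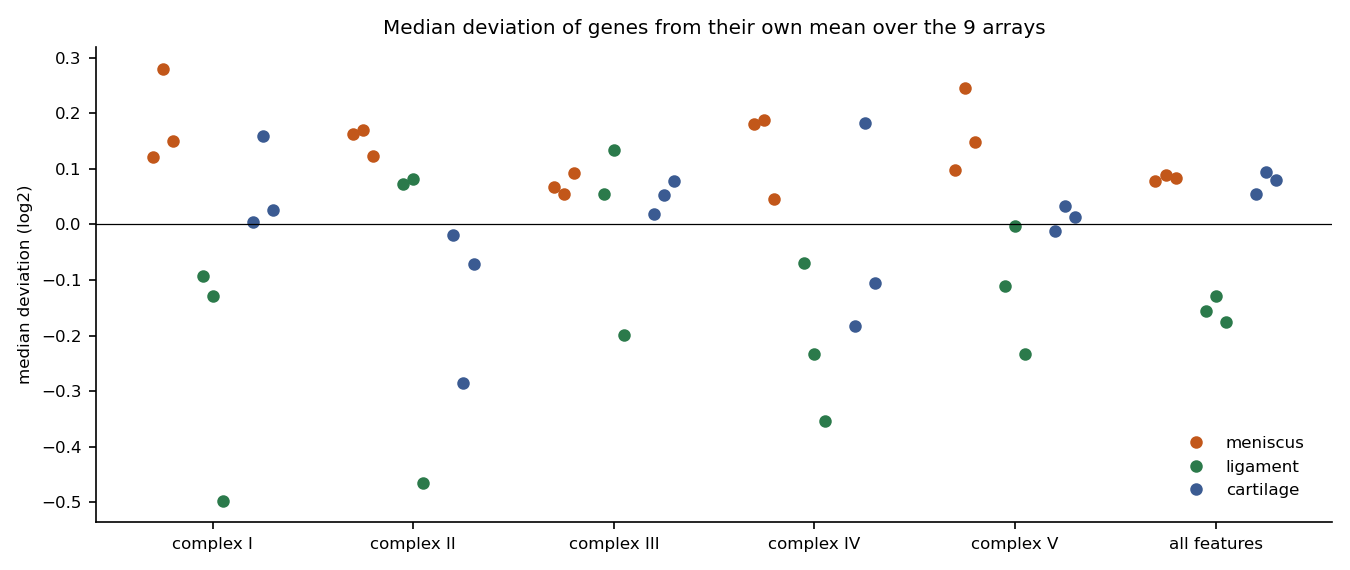
Median deviation of the genes of each complex from their own mean over the 9 arrays, in log2 units, one point an array, beside the same over all features. Ligament replicate 3 lies at -0.50 for complex I and -0.47 for complex II, below both other ligament arrays, and the 3 meniscus arrays lie above 0 in every complex.

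Other genes of the pathway were followed from lists. Of 33 tested assembly factors, 0 passed between meniscus and cartilage. Between meniscus and ligament 3 were higher in meniscus, beside 9.15% of all features: Ndufaf4 and Ndufaf8 of complex I and Coa5 of complex IV. Uqcc1 and Coa4, 2 of the 33, were lower in ligament than in cartilage, beside 11.7%. Ndufaf4, Ndufaf8 and Uqcc1 were detected on 0 ligament arrays and Coa4 on 1, so no size is given. Of 12 carriers and coupling proteins, Cycs and Vdac2 passed in both comparisons with ligament, lower in ligament, beside the same shares of all features. Cycs was detected on 1 ligament array and Vdac2 on 2. Cycs, cytochrome c itself, averaged 7.77 ± 0.52 in meniscus, 5.56 ± 0.56 in ligament and 7.14 ± 0.26 in cartilage (log2, mean ± SD), with adjusted p of 0.00686 against meniscus and 0.0188 against cartilage. Vdac2, a channel of the outer membrane, averaged 7.84 ± 0.28 in meniscus, 6.11 ± 0.57 in ligament and 7.58 ± 0.47 in cartilage, with adjusted p of 0.0145 and 0.0225.

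Of 13 tested TCA cycle genes, 0 passed limma's test in any comparison. At an unadjusted p under 0.05, 1 was higher in meniscus than in cartilage, beside 5.72% of all features, and 1 higher in meniscus than in ligament, beside 22.1%. Between ligament and cartilage 1 was higher in ligament, beside 9.12%, and 3 were lower, beside 23.4%. Of 10 tested regulators of mitochondrial biogenesis, Yy1 passed once, lower in meniscus than in ligament by a log2 difference of -1.04 (adjusted p = 0.0498), beside 3.56% of all features. Nrf1, the factor whose letters stood in 23.1% of the subunit promoters, averaged 6.77 ± 0.62 in meniscus, 7.29 ± 0.49 in ligament and 6.43 ± 0.32 in cartilage and did not pass. Of 66 mitochondrial ribosomal protein genes, 0 passed between meniscus and cartilage. In meniscus 5 were higher than in ligament, beside 9.15% of all features, and 1 lower, beside 3.56%. In ligament 1 was higher than in cartilage, beside 4.37%, and 4 lower, beside 11.7%. Mrpl9, among the 5, had entered the test through the meniscus arrays alone, where it was high. Mrpl38 had the largest fitted differences, at 6.79 ± 0.07 in meniscus, 4.88 ± 0.41 in ligament and 7.29 ± 0.36 in cartilage. It was detected on 0 ligament arrays, so its ligament level was not above background and no size is given. The median differences from cartilage for meniscus were 0.00090 for assembly factors, 0.08 for carriers, 0.14 for the TCA cycle, 0.0028 for biogenesis regulators and -0.01 for ribosomal proteins, beside 0.17 for the subunit genes and 0.01 for all features.

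Markers of other cell types also moved between the tissues. Of 19 skeletal muscle genes on the array 7 were detected on 0 arrays, Acta1 and Ckm among them, and 5 could be tested; their mean log2 level ran from 6.66 to 7.03 in meniscus, from 6.17 to 6.90 in ligament and from 6.18 to 6.56 in cartilage. Of these only Ttn passed, lower in meniscus than in ligament and higher in ligament than in cartilage. Ttn had entered the test through the ligament arrays alone, where it was high, and Myl1 and Mylpf through the meniscus arrays alone. The 5 tested erythroid genes averaged from 8.68 to 9.06 on the meniscus arrays, from 8.77 to 9.86 on the ligament arrays and from 7.59 to 8.30 on the cartilage arrays, and 2 passed: Hba-a1 was higher in ligament than in cartilage by 2.36 (adjusted p = 0.00315) and lower in meniscus than in ligament (adjusted p = 0.0140), and Hbb-bt was higher in ligament than in cartilage by 1.37 (adjusted p = 0.00987). The 8 tested endothelial genes averaged from 5.69 to 6.60 in meniscus, from 5.06 to 6.33 in ligament and from 4.81 to 4.92 in cartilage. At an unadjusted p under 0.05, 6 of the 8 were higher in meniscus than in cartilage, beside 5.72% of all features, with 0 passing after adjustment. All of the 8 but Emcn had entered the test through the meniscus arrays alone. Their averages and this count therefore follow in part from the filter. Cldn5, detected on the meniscus arrays alone, was higher in meniscus than in ligament (adjusted p = 0.0284), and Emcn was higher in ligament than in cartilage by 1.82 (adjusted p = 0.0397). The 4 tested macrophage genes, of 11 on the array with 4 at 0 arrays, averaged from 6.70 to 8.36 in meniscus, from 5.71 to 8.57 in ligament and from 5.04 to 5.55 in cartilage. All 4 were higher in meniscus than in cartilage at an unadjusted p under 0.05, with a median difference of 2.41 and 0 passing after adjustment. Lyz2, Mrc1 and Laptm5 had entered the test through the meniscus arrays alone, so this count and this median follow in part from the filter. Tyrobp, detected on all 9 arrays, was higher in ligament than in cartilage by 2.24 (adjusted p = 0.0306). The part of these cells in the differences of the subunit genes was not tested.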

How the data were processed

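RNA of E16 CD-1 mouse meniscus, cruciate ligament and articular cartilage was amplified and hybridised to Illumina arrays, 3 a tissue. The deposited scanner tables hold, per the file headers, a linear signal intensity and a detection p-value for each of 45281 probes on each array. GenomeStudio is the tool named in the submitters' processing notes (version not given). The authors' deposited value table holds processed intensity on a linear scale, normalized separately for the ligament arrays by a method that no header or label states. It served as an alternative where meniscus was compared with cartilage.

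Scanner rows carry no gene names, so each was matched by its ranks on the 9 arrays to a row of the value table, with 1 distinct partner for every row. Leaving out 1 array gave the same partner for 100% of rows. Probe names were paired with symbols by the platform annotation, and 34807 probes had a gene identifier that was found in the RefSeq table of GRCm38.p6.

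Signals were processed with limma 3.58.1 in R 4.3.3: neqc with an offset of 16 and detection p-values in place of negative controls, quantile normalization and log2. A probe was kept where all 3 arrays of some tissue had a detection p below 0.01, which held for 12538, and each gene used its brightest kept probe, which left 7234 named genes and 1932 unnamed probes. Of the 122 probes of the subunit genes, 92 were kept. Group means were fitted over all 9 arrays with lmFit and eBayes. Within each comparison the Benjamini-Hochberg adjustment ran over 9166 features, and adjusted p under 0.05 counted as passed. The number of arrays limits the precision of every value. A gene not above background on any array of a tissue has a bound for its fold, set by the lowest detected signal of each array. Differences with ligament are also given less the median feature, which was 0.24 in meniscus minus ligament and -0.22 in ligament minus cartilage, and 0.03 and -0.03 under cyclic loess. Promoters were searched with Python 3.11.15, with 1 window a gene. The scripts were tested on simulated data.

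The subunit genes, the lists of other genes, the tests and the alternatives were chosen with earlier results of these data known. Values on every array are given, by rule, for genes that passed in any comparison (up to 12), for the 3 largest differences of each complex, and for a list of core subunits that does not hold all of them and of isoform pairs, with some of the 41 genes so named given by differences alone. The alternatives were an offset of 50, no background correction, cyclic loess, no detection filter, detection on all 9 arrays, the mean of probes, only the 2 tissues compared, array weights, the replicate number as a block, the 6 arrays alone, the authors' values, and leaving out each array.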

Additional observations from a re-analysis of the deposited data

How the results depend on the processing

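Between meniscus and cartilage, the count of subunit genes that passed was 0 under each alternative except the authors' values, which gave 1 higher, beside 204 of 9128 features. Between meniscus and ligament, where 7 were higher and 1 lower, no background correction gave 11 and 2, the 2 tissues alone 3 and 0, and array weights 3 and 0, while an offset of 50 and detection on all 9 arrays gave 2 lower. Over all 9166 features, where 839 were higher and 326 lower, the first 3 of these settings gave 810 and 366, 340 and 154, and 346 and 162. The offset of 50 gave 344 lower of 9166 features, and detection on all 9 arrays 338 lower of 4433. Between ligament and cartilage, where 3 were higher and 5 lower, no background correction gave 5 and 8, the 2 tissues alone 0 and 1, array weights 1 and 2, and cyclic loess 3 lower. Over all 9166 features, where 401 were higher and 1070 lower, these gave 480 and 1040, 189 and 464, 180 and 452, and 615 lower. Leaving out 1 array gave 1 to 12 higher and 0 to 2 lower between meniscus and ligament, 0 to 5 higher and 1 to 9 lower between ligament and cartilage, and 0 to 0 in either direction between meniscus and cartilage. Over all features, it gave 261 to 1139 higher and 128 to 467 lower between meniscus and ligament. The same counts were 174 to 571 and 392 to 1212 between ligament and cartilage, and 0 to 78 and 0 to 65 between meniscus and cartilage. The cause of these shifts was not tested.

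The median subunit difference less the median feature was 0.16, 0.14 and 0.02 in meniscus minus cartilage, meniscus minus ligament and ligament minus cartilage. Without 1 array it ran from 0.11 to 0.19, from 0.04 to 0.18 and from -0.07 to 0.11, and with no detection filter it was 0.31 in meniscus minus ligament and -0.20 in ligament minus cartilage. With the mean of probes, Atp5k reversed to 0.29 in meniscus minus ligament and -0.16 in ligament minus cartilage, because its probes run in opposite directions.

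Same-numbered arrays of different tissues had correlated deviations of -0.03 to 0.15, so the numbers were not taken to pair the samples. With the replicate block, 0 subunit genes passed between meniscus and cartilage, 8 were higher and 1 lower in meniscus than in ligament, and 3 were higher and 2 lower in ligament than in cartilage. Over all 9166 features, the block gave 3 higher and 11 lower, 570 and 241, and 304 and 793 in these comparisons. Genes near background, such as Ndufs7, Ndufa11 and Cox6b2 in ligament, have only a bound there.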

Other observations

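The pseudogene Ndufs5-ps was left out of the subunit genes, and its probe was detected on all 9 arrays. Its log2 levels were 8.02, 8.01 and 7.28 on the meniscus arrays, 8.98, 8.22 and 9.02 on the ligament arrays and 7.96, 7.84 and 7.45 on the cartilage arrays. The ligament arrays lay above the other 6, but the differences of -0.97 ± 0.31 for meniscus minus ligament (limma, adjusted p = 0.0701) and 0.99 ± 0.31 for ligament minus cartilage (adjusted p = 0.0568) did not pass. Ndufs5 itself was not analysed here, and which transcript this probe reads was not tested.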
